A study of Mus musculus with 8 samples.

Results

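The genes described here are 29 genes that make cholesterol and fatty acids or govern that synthesis. They were taken by symbol from the 54146 gene identifiers of the deposited tables, and each symbol was found in both. They comprise 18 enzymes of sterol synthesis, 7 genes of fatty acid synthesis and desaturation, and 4 genes of regulation and transport. The last 4 are Insig1, Srebf1, Srebf2 and Stard4. Of the 18 enzymes, 7 belong to the mevalonate arm and 11 make squalene or lead from it to cholesterol. The cells were E14 mouse embryonic stem (ES) cells, a line derived from the inner cell mass, grown on mouse embryonic fibroblast feeders in LIF/2i medium. One culture was untreated (Control) and the other received CX-5461, which blocks RNA polymerase I, the enzyme that transcribes ribosomal RNA; the dose and time used for these libraries are not given in the sources used here. Single-cell libraries were made with the 10x Genomics droplet system, and each unique molecular identifier (UMI) stands for 1 captured RNA molecule. The labels list 4 samples per condition, whereas the methods give 1 biological replicate, and the barcodes of a condition share 1 table without a sample of origin. Each condition was therefore 1 library, no test between conditions was possible, and the intervals below are 95% intervals that cover counting error only. The barcodes were renamed in the tables, so barcodes shared by the libraries could not be counted.

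The Control table held 3838 barcodes with 49610287 UMIs and that of CX-5461 held 4922 barcodes with 69841836 UMIs. ES cells were the cells of the ES-like clusters that held 5000 or more UMIs and had a mitochondrial share no higher than 0.1, 2332 in Control and 3928 with CX-5461. These cells came from different clusters in the libraries (clusters 0 and 1 in Control, clusters 6, 7 and 8 with CX-5461), their median depth was 15947 and 14744 UMIs, and their median mitochondrial share was 1.88% and 4%. The feeders were the cells of cluster 2 under the same limits, 197 in Control and 160 with CX-5461. Of the 14 fibroblast markers, 3 were among the 50 leading genes of cluster 2, but none was among its first 10, which held 1 of the 7 macrophage markers (C1qb). The name feeders therefore stands below for cluster 2 as a whole. Markers of ES cells reached 4.95% of their ES-cell level in these feeders in Control and 2.86% with CX-5461, which is the background that free RNA and mixed droplets can give.

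Cholesterol is built from acetyl-CoA by way of mevalonate, farnesyl diphosphate, squalene and lanosterol. Its genes are switched on together by the transcription factors SREBP1 and SREBP2, the products of Srebf1 and Srebf2. When sterols are plentiful, Insig1 holds the SREBP precursor and its escort Scap in the endoplasmic reticulum, and the factors do not reach the nucleus. Insig1 is itself a target of SREBP, and its RNA is widely used as a reading of the pathway.

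The upstream bases of some of these genes are shown first, because shared control of the pathway is usually described at this place. RefSeq promoter windows of the GRCm38.p6 build matched 22 of the 29 genes, and 3 of them had more than 1 window. The 250 bases before each start were searched on both strands for the letters TCACNCCAC (an SREBP element), CACGTG (an E-box, which reads the same on both strands) and CCAAT (the box bound by NF-Y, which acts beside SREBP). The 4 sequences below belong to the gene with the lowest ratio in both kinds of cells (Insig1), to the one gene whose window held the SREBP letters (Hmgcs1), and to a late and an early enzyme whose RNA was lower with CX-5461 (Sc5d and Mvd). Each is written 5′ to 3′ on the strand of the gene, and capitals mark the matches to these letters on either strand. They lie at chr5:28071162-28071362 on the plus strand (Insig1, ending 50 bases before the start because annotated exon begins there), chr13:119690101-119690350 on the plus strand (Hmgcs1), chr9:42264301-42264550 on the minus strand (Sc5d) and chr8:122443423-122443672 on the minus strand (Mvd).
Insig1: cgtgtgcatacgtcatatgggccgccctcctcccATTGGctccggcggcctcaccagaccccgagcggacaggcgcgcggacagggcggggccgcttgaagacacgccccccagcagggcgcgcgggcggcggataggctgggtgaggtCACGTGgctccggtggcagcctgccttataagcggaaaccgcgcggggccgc
Hmgcs1: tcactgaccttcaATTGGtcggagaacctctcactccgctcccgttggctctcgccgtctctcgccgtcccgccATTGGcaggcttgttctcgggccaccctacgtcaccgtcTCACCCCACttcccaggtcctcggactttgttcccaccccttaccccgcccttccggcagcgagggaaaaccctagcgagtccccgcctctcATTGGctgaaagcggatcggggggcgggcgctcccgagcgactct
Sc5d: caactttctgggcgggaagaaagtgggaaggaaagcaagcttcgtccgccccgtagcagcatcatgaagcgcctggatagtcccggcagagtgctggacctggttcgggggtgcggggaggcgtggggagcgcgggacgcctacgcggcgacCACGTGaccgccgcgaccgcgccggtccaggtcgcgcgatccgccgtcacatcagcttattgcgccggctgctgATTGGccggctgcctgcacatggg
Mvd: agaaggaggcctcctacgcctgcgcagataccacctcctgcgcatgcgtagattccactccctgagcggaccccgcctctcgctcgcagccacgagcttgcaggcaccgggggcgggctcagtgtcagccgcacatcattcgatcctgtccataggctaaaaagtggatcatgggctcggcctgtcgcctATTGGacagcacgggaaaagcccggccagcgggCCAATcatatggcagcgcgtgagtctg

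In these sequences Insig1 had its E-box starting 101 bases before the start and an inverted CCAAT 216 bases before it. Hmgcs1 held the SREBP letters 137 bases before its start, with inverted CCAAT boxes at 237, 176 and 45 bases. Sc5d had an E-box at 98 bases and an inverted CCAAT at 24 bases, and Mvd had CCAAT in both directions, at 60 and 27 bases. Over all matched genes, the CCAAT letters were in the window of 18 of 22 (81.8%), against 41.5% of the 8376 genes tested in ES cells that had a window. The E-box was in 4 of 22 (Insig1, Hsd17b7, Sc5d and Dhcr7), 18.2% against 10.2%, and the SREBP letters were in 1 of 22, 4.55% against 1.19%. Genes with more than 1 window had more chances of a match. Some windows were annotated exon over all 250 bases, among them those of Idi1 and Tm7sf2 and the Dhcr7 windows that held its matches. These matches describe the letters in these windows only.

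Insig1 (GRCm38 chr5:28071363-28078662, plus strand) had the lowest ratio of the 29 genes in ES cells. It stood at 69.2 CPM (UMIs of the gene scaled to the same total of UMIs in each sum of cells) in Control, with an interval of 66.6 to 71.7, and at 18.4 CPM with CX-5461, with an interval of 17.3 to 19.5. The ratio of CX-5461 to Control was 0.266 (0.248 to 0.285), a log2 ratio of -1.91, which placed Insig1 at percentile 0.968 of all genes tested. In cells thinned to 5000 UMIs each, 26.5% of Control ES cells (24.7% to 28.3%, Clopper-Pearson) and 8.91% of CX-5461 ES cells (8.04% to 9.84%) held an Insig1 UMI. In feeders its level was 102 CPM in Control and 17.6 CPM with CX-5461, a ratio of 0.173 (0.132 to 0.223), again the lowest of the 29. The share of thinned feeders with an Insig1 UMI was 36% in Control and 6.88% with CX-5461. The interval of Insig1 in one library thus lay far from that in the other in both kinds of cells.

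A gene was called lower or higher when its ratio passed 1.5-fold and its interval excluded 1, among 11567 genes with at least 200 UMIs in ES cells and 8423 genes with at least 50 UMIs in feeders. All 29 genes had enough UMIs in both. In ES cells, 12 of the 29 were lower with CX-5461, against 7.46% of all genes tested, and 2 were higher, against 36.2% of all genes tested. In feeders, 19 of the 29 were lower, against 10.4% of all genes tested, and 0 were higher, against 20.6%. The median log2 ratio of the 29 genes was -0.37 in ES cells and -0.92 in feeders, whereas that of all genes tested was 0.36 and 0.16. Since the whole distribution was shifted upward, each gene is also given relative to this median. Relative to the median gene, 19 of the 29 were lower in ES cells (17% of all genes) and 0 were higher (21.2% of all genes). In feeders, 21 were lower (14.8% of all genes) and 0 were higher (13.7% of all genes).

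**Figure D1:**
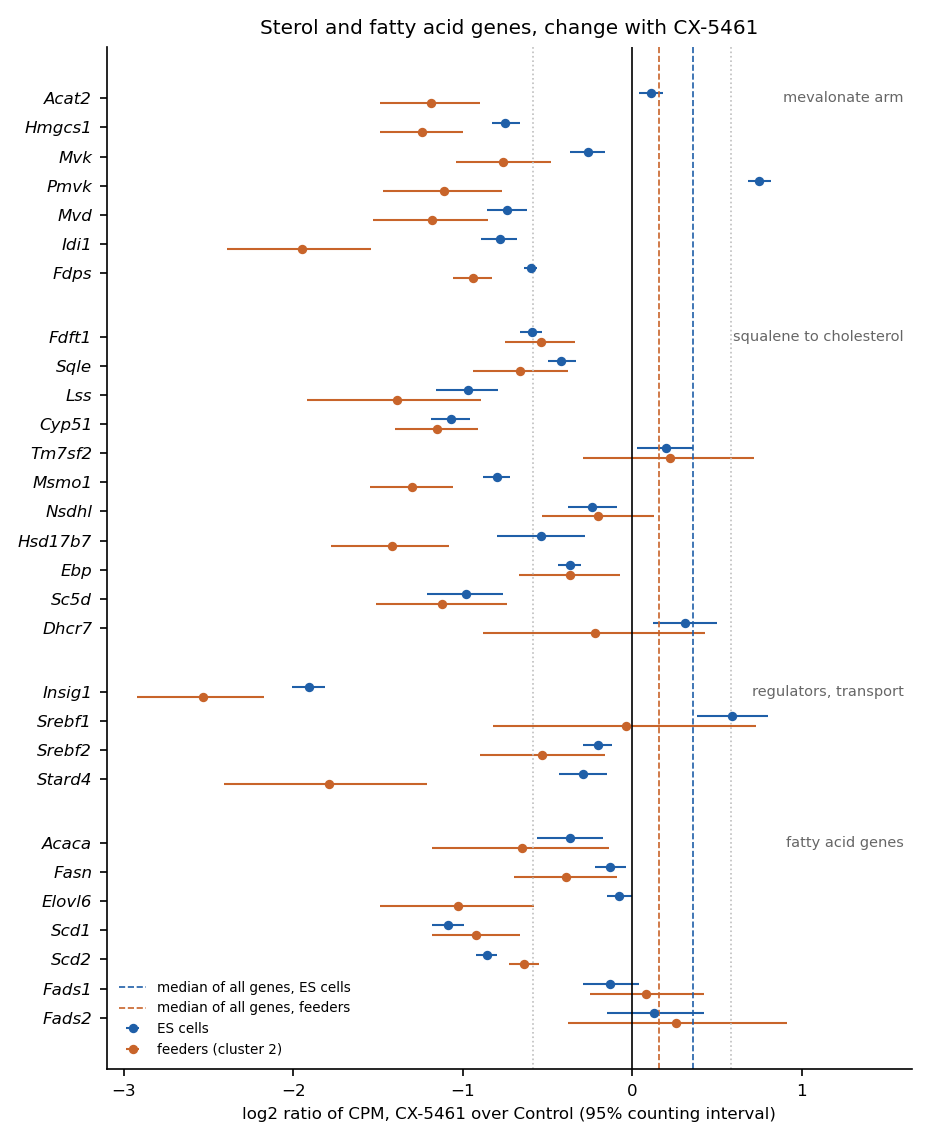
Log2 ratio of CPM, CX-5461 over Control, of each of the 29 genes in ES cells (blue) and in feeders (orange), with 95% counting intervals as bars, dashed lines at the median of all genes tested (0.36 and 0.16) and dotted lines at 1.5-fold. Insig1 is farthest to the left in both, at -1.91 and -2.53, and Pmvk lies right of 0 in ES cells and left of it in feeders.

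The mevalonate arm turns acetyl-CoA into farnesyl diphosphate. In ES cells 4 of its 7 genes were lower, 1 was higher and 2 were not called. Hmgcs1, which makes HMG-CoA, had 57 CPM in Control and 34 CPM with CX-5461, a ratio of 0.596 (0.561 to 0.632). Mvd, the decarboxylase that yields isopentenyl diphosphate, had 30.1 and 18 CPM (ratio 0.599). Idi1, the isomerase of that product, had 38.7 and 22.5 CPM (ratio 0.582), and Fdps, farnesyl diphosphate synthase, had 262 and 173 CPM (ratio 0.66). The ratios of these 4 genes ran from 0.582 to 0.66, a range whose upper end was bounded by the rule for calling them. The interval of Fdps (0.643 to 0.678) lay above that of Idi1 (0.541 to 0.626).

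The other 3 genes of the arm were not called lower. Pmvk, phosphomevalonate kinase (GRCm38 chr3:89454541-89469013, plus strand), was higher, from 55.8 CPM in Control (53.5 to 58.1) to 94 CPM with CX-5461 (91.6 to 96.5), a ratio of 1.69. It was 0.39 above the median gene on the log2 scale and was not called on that scale. Mvk, mevalonate kinase, had 30.9 and 25.7 CPM (ratio 0.832), and Acat2, which joins acetyl-CoA units, had 66.2 and 71.3 CPM (ratio 1.08). Acat2 was thus above 0 on the CPM scale (log2 ratio 0.11) and below the median gene (-0.25).

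In feeders all 7 genes of the mevalonate arm were lower. Idi1 had the lowest ratio of the arm, with 58.4 CPM in Control and 15.1 CPM with CX-5461 (ratio 0.258, interval 0.191 to 0.343). Hmgcs1 went from 114 to 48.3 CPM, Fdps from 438 to 228 CPM and Mvd from 59.8 to 26.3 CPM. Acat2 and Pmvk, the genes of the arm whose ratio was above 1 in ES cells, had 77.1 and 54.2 CPM in Control feeders and 33.7 and 25 CPM with CX-5461. Their log2 ratio in feeders lay below that in ES cells by 1.30 for Acat2 and by 1.87 for Pmvk.

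The other 11 enzymes make squalene (Fdft1) and from there build and trim the sterol ring. In ES cells 5 of the 11 genes were lower and none was higher. Cyp51, lanosterol demethylase, had the lowest ratio of these genes, from 36.9 CPM in Control (35.1 to 38.8) to 17.5 CPM with CX-5461 (16.5 to 18.6), a ratio of 0.475. Sc5d, a desaturase of a late step, had 9.47 and 4.79 CPM (ratio 0.506), and Lss, which closes the ring to lanosterol, had 13.5 and 6.86 CPM (ratio 0.509). Msmo1, the methylsterol monooxygenase, had 67.2 and 38.6 CPM (ratio 0.574). Fdft1, squalene synthase, was just past the limit with 105 and 69.5 CPM (ratio 0.662).

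Just short of the limit in ES cells were Hsd17b7, a sterol ketoreductase (log2 ratio -0.54), and Sqle, squalene epoxidase (-0.42), next to Fdft1 (-0.59) and Fdps (-0.60) inside it. Ebp, the sterol isomerase, had 74 and 57.4 CPM, and Nsdhl, which removes a carboxyl group during demethylation, had 16.7 and 14.2 CPM. Both were below 1.5-fold in CPM and lay 0.73 and 0.60 below the median gene on the log2 scale. Tm7sf2, a sterol reductase, and Dhcr7, the reductase of the last step, had ratios above 1, at 1.15 and 1.24. On the log2 scale relative to the median gene their sign turned, to -0.16 and -0.05.

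In feeders 6 of these 11 genes were lower. Hsd17b7 had the lowest ratio, from 63.1 CPM in Control to 23.5 CPM with CX-5461 (ratio 0.372), followed by Lss (29.4 and 11.2 CPM), Msmo1 (123 and 49.8 CPM), Cyp51 (109 and 48.8 CPM), Sc5d (45.5 and 20.9 CPM) and Sqle (68 and 43.2 CPM). Fdft1, called in ES cells, was not called in feeders, with 116 and 79.7 CPM (log2 ratio -0.54). The intervals of Nsdhl, Tm7sf2 and Dhcr7 in feeders included a ratio of 1, the last with only 48 and 36 UMIs behind it. Summed over the 18 sterol enzymes, the level was 941 CPM in Control ES cells (932 to 951) and 714 CPM with CX-5461 (707 to 721). In feeders the same sum was 1541 CPM (1504 to 1577) and 796 CPM (768 to 824).

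**Figure D2:**
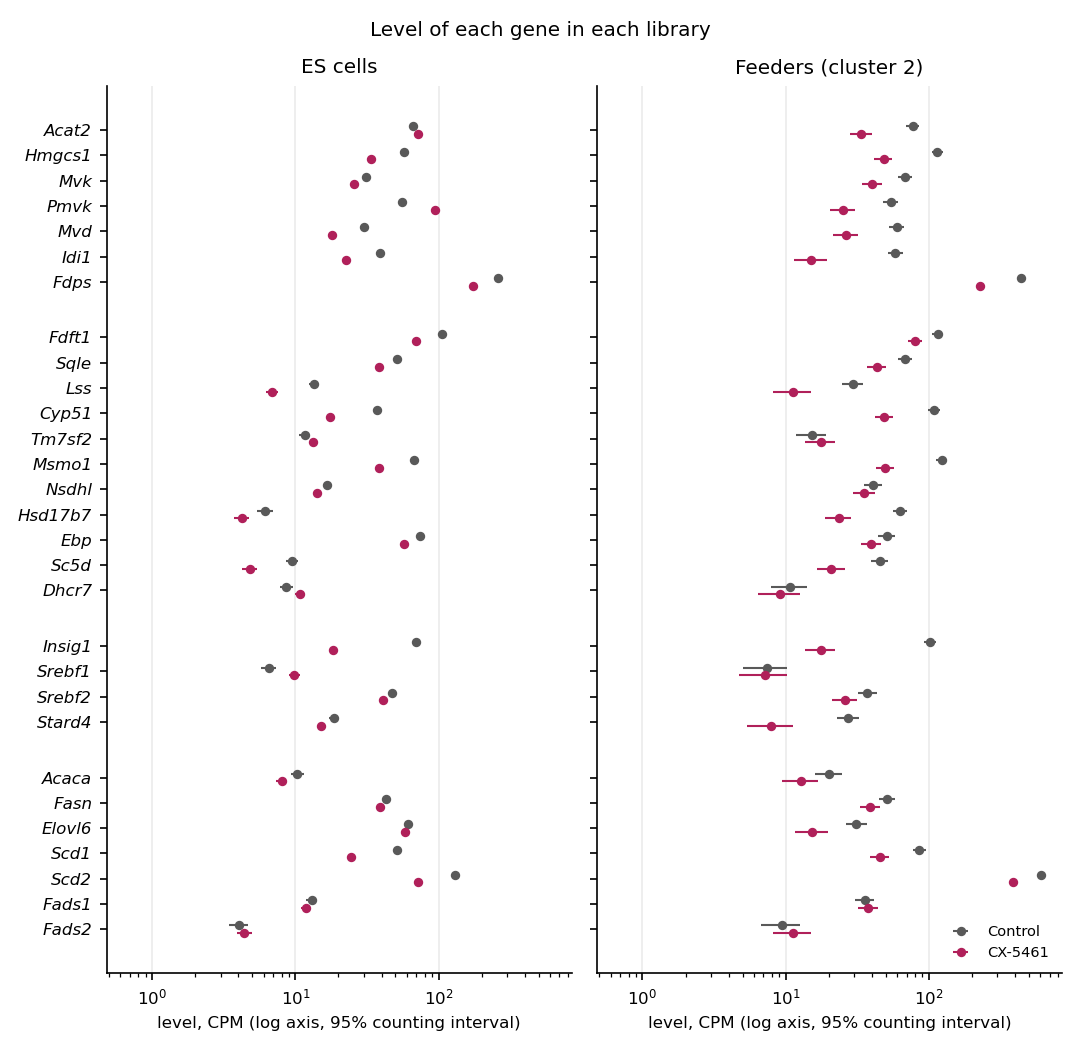
Level of each of the 29 genes in CPM on a log axis in ES cells (left) and feeders (right), Control in grey and CX-5461 in red, with 95% counting intervals as bars where wider than the point. Insig1 falls from 69.2 to 18.4 CPM in ES cells and from 102 to 17.6 CPM in feeders, and the feeder intervals are wider because 197 and 160 cells stand behind them.

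Among the regulators, the ratios of the genes for the SREBP factors were closer to 1 than that of Insig1. Srebf2, whose product mainly drives sterol genes, had 47.5 and 41.2 CPM in ES cells, a ratio of 0.868 (0.818 to 0.921), and 37.2 and 25.8 CPM in feeders (log2 ratio -0.53), and neither was called in CPM. Relative to the median gene, Srebf2 was lower in feeders (-0.69) and was not called in ES cells (-0.56). Srebf1, whose product mainly drives fatty acid genes, was just past the limit in ES cells, with 6.54 and 9.85 CPM (ratio 1.51, 1.3 to 1.75), and was not called relative to the median gene. In feeders it had 7.36 and 7.15 CPM from 33 and 28 UMIs. Stard4, a sterol carrier between membranes, had 18.6 and 15.2 CPM in ES cells, where it was lower only relative to the median gene (log2 -0.65), and in feeders it was lower, from 27.4 to 7.92 CPM (ratio 0.289, 0.188 to 0.431). Its ratio in feeders was the third lowest of the 29, after Insig1 and Idi1.

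The fatty acid genes were less alike. In ES cells 2 of 7 were lower, both of them stearoyl-CoA desaturases, which put the first double bond into saturated chains. Scd1 went from 51.6 CPM (Control) to 24.3 CPM with CX-5461 (ratio 0.471), and Scd2 from 129.6 to 71.4 CPM (ratio 0.551). Acaca, acetyl-CoA carboxylase, had 10.3 and 8.03 CPM, Fasn, fatty acid synthase, 42.7 and 39 CPM, and Elovl6, which lengthens the products of Fasn, 61.6 and 58.5 CPM. Fads1 and Fads2, desaturases of polyunsaturated chains, had ratios of 0.916 and 1.1. The sign for Fads2 turned on the scale relative to the median gene (log2 0.13 and -0.23), and none of these 5 genes was called in CPM.

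In feeders 4 of the 7 fatty acid genes were lower. Elovl6 had 31.2 CPM in Control and 15.3 CPM with CX-5461 (ratio 0.491), Scd1 had 86.1 and 45.5 CPM, Scd2 607 and 390.1 CPM, and Acaca 20.1 and 12.8 CPM. Scd2 (log2 ratio -0.64) and Acaca (-0.65) were just inside the limit, and Fdft1 (-0.54) and Srebf2 (-0.53) just outside it. Fasn had 51.3 and 39.1 CPM and was not called, and the intervals of Fads1 and Fads2 included a ratio of 1; the log2 ratio of Fads1 was 0.08 and turned to -0.08 relative to the median gene. The sum of the 7 genes was 313 and 218 CPM in ES cells and 840.3 and 552 CPM in feeders.

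Of the calls, 11 genes were lower in both kinds of cells, 8 were lower in feeders only by this rule, and Fdft1 was lower in ES cells only. Among all genes tested, 7.46% were lower in ES cells and 10.4% in feeders. The shares of all genes lower in both or in a single kind of cells were not counted. The difference between the log2 ratios was computed for each of the 29 genes with an interval from the 4 counts behind it. On the CPM scale the interval lay below 0 for 12 genes, so that the ratio in feeders was the lower one. For Scd2 it lay above 0, at 0.22 (0.11 to 0.33), and for the other 16 genes it included 0. The same count over all genes was not made, and the medians of all genes tested (0.36 and 0.16) differed in the same direction as the 12. Among the 12, Pmvk had the widest difference, -1.87 (-2.21 to -1.52), followed by Stard4 at -1.50 (-2.09 to -0.92), Acat2 at -1.30 (-1.60 to -1.0) and Idi1 at -1.17 (-1.59 to -0.75). Insig1 differed by -0.62 (-1.0 to -0.24). Relative to the median gene of each kind of cells, the 12 differences were smaller by the distance between the medians. The one for Insig1 was -0.42 and the one for Mvd -0.25, whereas that of Scd2 was wider, at 0.42. No intervals were computed on that scale.

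Other lists moved in feeders as well. The fibroblast markers summed to 4899 CPM in Control and 10468 CPM with CX-5461, and 11 of the 14 were higher. Of the 7 macrophage markers, 5 had enough UMIs in feeders and all 5 were lower. Their sum was 243 CPM in Control and 17.4 CPM with CX-5461, where C1qa and C1qb were at 0. Without the 7 Control and 1 CX-5461 cells that held 5 or more of these UMIs, the macrophage sum was 13.7 and 16.2 CPM, 19 of the 29 genes were still lower and their median log2 ratio was -0.94. Genes of the G2/M phase summed to 135 and 51.6 CPM in feeders, with 7 of the 8 tested lower, and those of the S phase to 157 and 83.5 CPM, with 5 of the 9 tested lower. In ES cells the same lists were at 1155 and 1333 CPM and at 1072 and 964 CPM, and the fibroblast markers at 144 and 187 CPM. The part of the cell-cycle genes and of the fibroblast markers in the feeder ratios was not tested.

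Within Control, most of the 29 genes stood higher in feeders than in ES cells. Of them, 16 were at least 1.5-fold higher, against 36.6% of the 7611 genes tested in both, and 1 was lower, against 26.5%. Hsd17b7 had 6.16 CPM in ES cells and 63.1 CPM in feeders, a ratio of 10.3 (8.62 to 12.2), the highest of the 29. Sc5d followed with 9.47 and 45.5 CPM (ratio 4.8), and Scd2 with 129.6 and 607 CPM (ratio 4.68). Elovl6 was the gene that was lower in feeders, with 61.6 and 31.2 CPM. With CX-5461, 11 genes were higher in feeders than in ES cells (31.6% of all genes tested) and 5 were lower (30.1%), among them Pmvk, with 94 CPM in ES cells and 25 CPM in feeders. Insig1, at 18.4 CPM in ES cells and 17.6 CPM in feeders with CX-5461, had a ratio of 0.96 (0.741 to 1.22) between them, whereas that in Control was 1.48 (1.33 to 1.63).

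The sums differed among other cells of the same libraries too. In the 513 CX-5461 cells of the ES-like clusters that failed the limits on depth or mitochondrial share (median share 15.7%), the sterol enzymes summed to 1233 CPM (1195 to 1273), above both the CX-5461 and the Control ES cells that passed. In 1174 unnamed Control cells with a median of 2392 UMIs and 11.9% mitochondrial, the sum was 1289 CPM and Insig1 stood at 115 CPM. Insig1 in the 513 CX-5461 cells stood at 31.4 CPM. The sterol sum was thus high in the cells with a high mitochondrial share in both libraries, while Insig1 was lower with CX-5461 than in Control among these cells as well. The 2C-like cells, which carry transcripts of the 2-cell embryo, had sums of 543 CPM (422 to 688) in 12 Control cells and 602 CPM (558 to 649) in 87 CX-5461 cells.

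**Figure D3:**
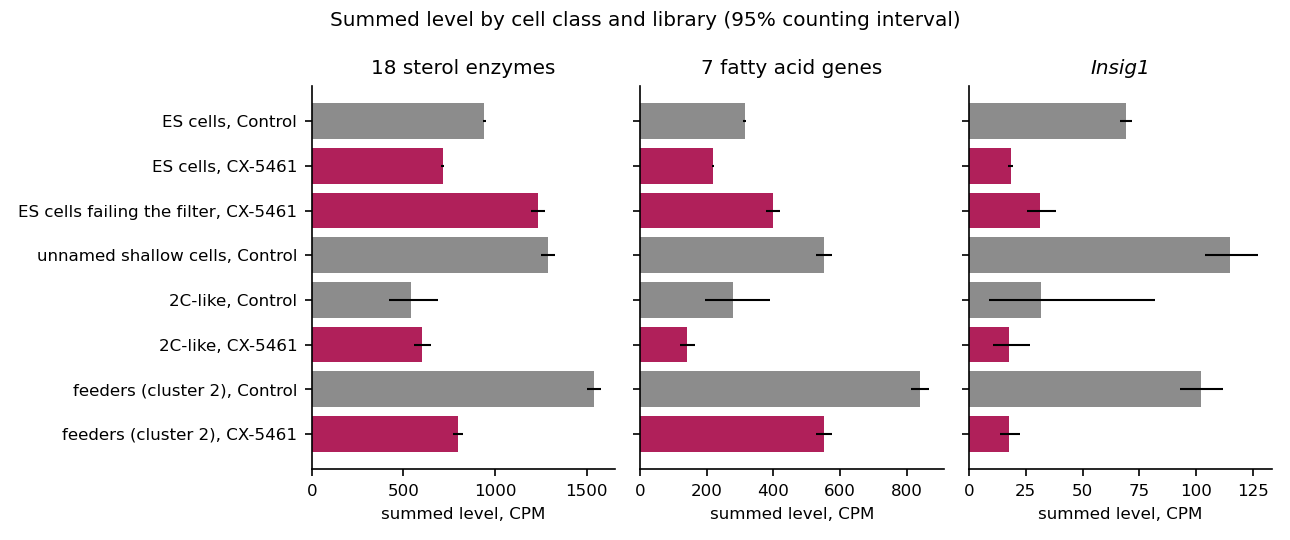
Summed level in CPM of the 18 sterol enzymes, the 7 fatty acid genes and Insig1 in each class of cells, with Control in grey, CX-5461 in red and 95% counting intervals as bars. The sterol sum is 941 CPM in Control ES cells and 714 CPM with CX-5461, and it reaches 1289 and 1233 CPM in the sets of cells with a high mitochondrial share, while Insig1 is at most 31.4 CPM in the CX-5461 classes.

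Finer clusters divided the ES-like cells further. The sums by cluster are over all its cells, without the limits on depth and mitochondrial share. Among the CX-5461 ES-like clusters at resolution 1.0, other than the one with a high mitochondrial share, the sterol sum ran from 617 to 828 CPM, and the fatty acid sum from 111 to 263 CPM. Among the Control ES-like clusters the sterol sum ran only from 927 to 948 CPM. One of these Control clusters, 290 cells led by Amt and Cbx3, had Insig1 at 199 CPM (186 to 213), against 52.2 and 62.1 CPM in the others. Its sterol sum of 937 CPM lay between those of the others, and its fatty acid sum was 322 CPM (305 to 339.9), against 308 and 320.5 CPM. Without the 274 cells of this cluster that passed those limits, the log2 ratio of Insig1 in ES cells was -1.60 and 12 of the 29 genes were lower.

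How the genes varied with Insig1 from cell to cell was described in the 2332 Control ES cells, thinned to 5000 UMIs each, over 5838 genes found in at least 5% of them. Of the 29 genes, 23 others than Insig1 reached that share. Their Spearman correlations with Insig1 had a median of 0.010 and ran from -0.046 (Mvd) to 0.065 (Hmgcs1), and the middle 98% of all genes ran from -0.047 to 0.059. Hmgcs1, at rank 36, was the one member in the top 1%. All of these correlations were weak, as is usual for sparse counts, and they are given as a description across cells of 1 library. Among the 10 genes nearest to Insig1 were Cbx3 (0.198), Actb (0.173), Amt (0.157), Mcmbp (0.126), Spry2 (0.120), Upf1 (0.116), Abhd2 (0.107), Hsf2 (0.102) and Set (0.102). Of these, Cbx3, Amt, Spry2, Abhd2 and Hsf2 were also among the 10 leading genes of the Control cluster of 290 cells, where Insig1 was highest among the Control ES-like clusters. In CX-5461 ES cells the median over 21 of the genes was 0.007, with Sqle highest at 0.044, and Cbx3 was again the nearest gene, at 0.063.

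**Figure D4:**
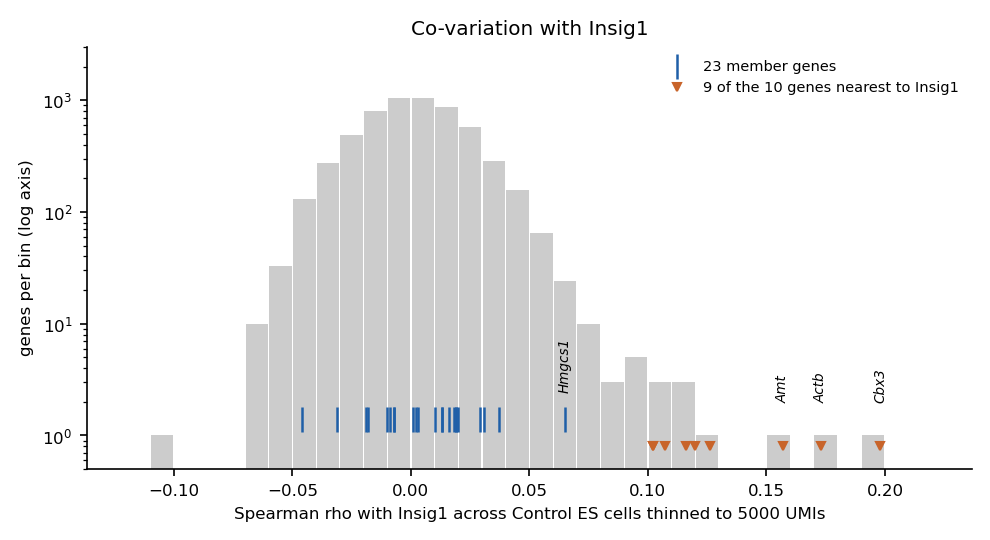
Number of genes (log axis) by their Spearman correlation with Insig1 across 2332 Control ES cells thinned to 5000 UMIs. Blue ticks mark 23 of the genes described here and orange triangles 9 of the 10 nearest genes; the ticks lie among all genes, from -0.046 to 0.065, and the triangles start at 0.102.

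The same cells were grouped by their Insig1 UMIs. The sterol enzymes summed to 939 CPM in the 1715 cells with 0 Insig1 UMIs, 939.6 CPM in the 470 with 1, 1026 CPM in the 109 with 2 and 932 CPM (799 to 1079) in the 38 with 3 or more. The sum thus did not move with Insig1 beyond counting error between the first and last group. In CX-5461 ES cells it was 695 CPM (682 to 707) in the 3578 cells with 0 Insig1 UMIs, 746 CPM (705 to 789) in the 332 with 1 and 1024 CPM (819.8 to 1263) in the 17 with 2, the last from 87 UMIs. There the sum was higher in the cells with 2 Insig1 UMIs than in those with 0 beyond counting error. That interval leaves out the spread between cells, where the sum varied 1.35 times as much as its mean with CX-5461. The group with 3 or more was too small to be summed there. In the same groups of Control cells Cbx3 stood at 147, 225, 394 and 605 CPM and Actb, cytoplasmic actin, at 1606, 2057, 3138 and 4926 CPM. Hmgcs1 was at 53.5, 68.1, 69.7 and 52.6 CPM, the last from 10 UMIs. Cbx3, Actb and Amt were themselves lower with CX-5461 in ES cells, with log2 ratios of -1.75, -0.75 and -1.35. In the Control cluster of 290 cells led by Amt and Cbx3, Cbx3 stood at 679 CPM and Actb at 4749 CPM. In the other Control ES-like clusters Cbx3 was at 116 and 136 CPM and Actb at 1357 and 1480.2 CPM. Whether both rose with Insig1 outside the cluster of 290 cells was not tested.

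**Figure D5:**
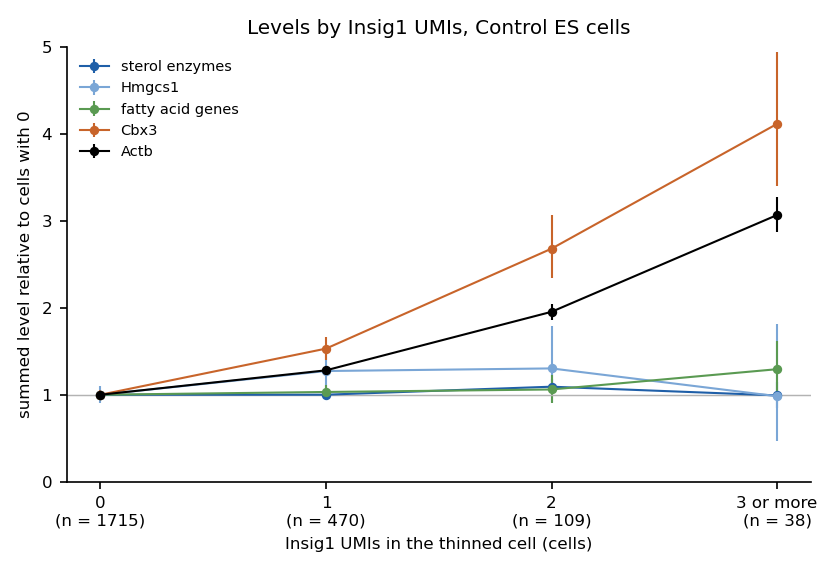
Summed level of gene groups and single genes in Control ES cells by the number of Insig1 UMIs in the cell thinned to 5000 UMIs, relative to cells with 0, with 95% counting intervals of each level as bars. Cbx3 and Actb rise with Insig1, to 605 and 4926 CPM, while the sterol enzymes stay between 932 and 1026 CPM.

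Pairs of the sterol genes were as weakly related. Over 120 pairs of the 16 enzymes found in at least 5% of Control ES cells, the median Spearman correlation was 0.014, and 89 were above 0. Between these enzymes and all genes the median was 0.002, with 49390 of 93424 pairs above 0. The highest was 0.092, between Fdps and Fdft1, whose enzymes make and use farnesyl diphosphate. Each enzyme was also compared with the sum of the other sterol enzymes in the same cell, with a median of 0.050 and the highest value for Fdps (0.137, rank 15), against a median of 0.007 over all genes. The genes most like that sum were Eif4a1 (0.181), Gapdh (0.175) and Prdx1 (0.168), genes of translation, glycolysis and peroxide removal. The sum per thinned ES cell varied 1.41 times as much as its mean in Control and 1.35 times with CX-5461, where counting error alone gives 1. In feeders this value was 3.14 and 3.06.

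Other genes of the pathway were taken from 2 lists that hold none of the 29. Of 22 further genes of sterol synthesis, uptake and control, 20 had enough UMIs in ES cells, and 2 were lower (7.46% of all genes tested) and 1 was higher (36.2% of all genes tested), with a median log2 ratio of 0.29. Relative to the median gene, 8 of the 20 were lower (17% of all genes) and 1 was higher (21.2%), with a median of -0.07. In feeders 18 had enough UMIs, and 5 were lower (10.4% of all genes) and 5 higher (20.6%), with a median of 0.30. Scap, the escort of SREBP, was higher, from 4.8 to 20 CPM (ratio 4.17, 3.59 to 4.87). In feeders Scap had 12.5 and 31.9 CPM. Of 19 further fatty acid genes, 18 had enough UMIs in ES cells, and 2 were lower (Acsl4, log2 ratio -0.96, and Hacd3, -0.62) and 2 higher (Lpin1, 1.59, and Elovl1, 0.81, the latter not called relative to the median gene). Their median was 0.05. Relative to the median gene, 7 of the 18 were lower and 1 was higher, with a median of -0.31. In feeders 17 had enough UMIs, and 5 were lower and 1 was higher, with a median of -0.12.

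All 29 genes are protein-coding genes of the GENCODE annotation of GRCm38. Of them, 10 share exonic bases with another annotated gene, and for 4 that gene lies on the same strand (Fdps, Tm7sf2, Srebf1 and Scd2). For Tm7sf2, which overlaps Vps51, the authors set aside 267 counts in Control and 511 with CX-5461 as ambiguous over all barcodes. These stand beside 612 and 958 counted UMIs, so the level of Tm7sf2 is uncertain. Fdps overlaps Gm43738, which was itself lower in ES cells (log2 ratio -0.87). Hmgcs1, Idi1, Fdft1, Lss, Cyp51, Srebf1 and Elovl6 overlap a gene on the opposite strand, and whether the counting used strand is not given in the sources used here.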

How the data were processed

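Single-cell RNA-seq of untreated and CX-5461-treated mouse ES cells was analysed. The deposited values are raw UMI counts, 1 table per condition, which the authors produced from 10x Genomics libraries with an earlier droplet workflow; the submitters' processing notes name mm10 and Seurat 2.3.4, and the methods name Bowtie as that workflow's aligner, with HISAT2 in its place for repeats. Every barcode of a table was pooled, so n is 1 library per condition and no p-value was computed. The authors' counts set aside as ambiguous were used only to mark uncertain genes.

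The study's filter (500 UMIs, mitochondrial share 0.2) left 3767 cells in Control and 4697 with CX-5461. They were clustered with scanpy 1.11.5 (2000 variable genes without the members and the other pathway genes, 16 principal components, 15 neighbours, Leiden resolution 0.5). A cluster was named fibroblast-like or 2C-like with at least 3 markers among its 50 leading genes, and otherwise ES-like with at least 0.5 of the mean ES-marker level and no low depth. Doublets were not removed. UMIs were summed over cells and divided by their total (CPM), with exact Poisson intervals for levels, exact conditional binomial intervals for ratios and Clopper-Pearson intervals for shares, all at 95%. Correlations used cells thinned at random to 5000 UMIs. Depth limits the rarest members, some of which had under 100 UMIs in feeders. The steps were tested on simulated data. Alternatives covered the cell filter, the scaling (edgeR 4.0.16 TMM in R 4.3.3), thinning, the classes and the minimum of UMIs.

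The genes named are the 29 members, the 10 genes nearest to Insig1 by Spearman correlation, and the genes of the 2 other pathway lists past 1.5-fold in ES cells. Some of the named genes are not reported here. The members and lists were chosen with earlier results of these data known. The macrophage-marker cells, the wider feeder class, the deepest cells, the cluster led by Amt and Cbx3 and the whole promoter window were alternatives chosen after seeing the data; Gm43738, C1qa, C1qb and the genes nearest to the sterol sum were named after their values were seen.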

Additional observations from a re-analysis of the deposited data

Results flagged for a closer look

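Pmvk and Acat2 had intervals on opposite sides of a ratio of 1 in the 2 kinds of cells. The log2 ratio of Pmvk was 0.75 in ES cells and -1.11 in feeders, and that of Acat2 was 0.11 and -1.19. With 1 library per condition the difference was not tested across samples. Relative to the median gene, Pmvk kept opposite signs (0.39 and -1.27), whereas Acat2 was below the median gene in both (-0.25 and -1.35).

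The counts of Tm7sf2 that were set aside as ambiguous came to 267 in Control and 511 with CX-5461, beside 612 and 958 counted UMIs over all barcodes. They were used in no comparison.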

How the results depend on the processing

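No paired analysis was possible because the barcodes carry no sample of origin, so the replicate numbers of the labels could not be tied to cells. With the TMM factor, 19 of the 29 genes were lower in ES cells and 0 higher, with a median log2 ratio of -0.72, and 15 of the other pathway genes were lower; relative to the median gene these values were 19, 0, -0.73 and 15. Thinned to 5000 UMIs, 2 of the other pathway genes were lower, and with the study's filter (500 UMIs, 0.2 mitochondrial) 6 were higher. That filter was applied within the ES-like clusters (2365 Control and 4441 CX-5461 cells), so the 1174 unnamed Control cells stayed out. Without the 5% deepest ES cells, 1 of the 29 genes was higher. Classes by the marker rule left 6 Control feeders, and then 6 of the 29 genes were lower in feeders, with a median of -0.51, and Acaca (1.17), Acat2 (0.08), Mvd (0.74) and Scd1 (0.57) had positive log2 ratios; so few cells limit these values. Thinned to 10000 UMIs, the sterol sum varied 1.82 times as much as its mean. The 12 genes lower in ES cells had negative log2 ratios under all 10 alternatives, with Insig1 between -2.27 and -1.60. Of the 19 genes lower in feeders, 14 had negative log2 ratios under all 10 alternatives, and Insig1 ran from -2.94 to -2.04. The median correlation with Insig1 ran from 0.002 to 0.038, and the rank of Hmgcs1 from 10 to 1540.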
